A study of Mus musculus with 8 samples.

Results

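The tissue outside muscle in sections of the embryonic mouse diaphragm was compared between control embryos at E18.5 and at E14.5 (embryonic days). Expression came from 10x Visium arrays of formalin-fixed sections, in which probe pairs for each gene are captured on spots 55 µm wide and counted as unique molecules (UMIs). Spots outside muscle were chosen by measured values: at least 1000 UMIs, a mean log-normalized level of 9 genes of the contractile apparatus (*Acta1*, *Actn2*, *Des*, *Myl1*, *Mylpf*, *Neb*, *Ryr1*, *Tnnt3* and *Ttn*) at or below the Otsu threshold of the section, and at most 0.5% of UMIs from the liver and adrenal genes *Alb*, *Ahsg*, *Cyp11a1* and *Star*. This left 1262 of the 8365 control spots under tissue, 596 in 3 sections at E14.5 and 666 in 2 sections at E18.5, beside 6992 muscle spots. The whole series holds 12771 spots in 8 sections, and of the other 3 sections the CaV1.1 KO pair, 1 section at each stage, is used here. Each section comes from its own embryo. Control embryos carried at least 1 functional allele of the calcium channel CaV1.1 and of β-catenin, so they could be heterozygous, and the crosses for the muscle deletion of β-catenin used a Cre driven by the human skeletal actin promoter. The KO embryos carried no functional CaV1.1 allele. Staging counted the day of the vaginal plug as E0.5, and sex and litter were not given in the sources used here.

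The diaphragm is a sheet of muscle that radiates from a central tendon to the ribs. Between and beside its fibers lie connective tissue fibroblasts, tendon cells, vessels, nerves, resident immune cells and the mesothelium that lines both surfaces. Fetal connective tissue is first rich in dividing cells and loose matrix and later lays down fibrillar collagen, elastic fibers and small proteoglycans that bind collagen and set how its fibrils assemble. A Visium spot covers several cells, so each value is a mixture, and fewer cells of a type and less RNA per cell cannot be told apart.

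The spots outside muscle numbered 257, 244 and 95 in E14.5 controls 1, 2 and 3, and 340 and 326 in E18.5 controls 1 and 2. They held 1150475 (E14.5 control 3) to 8711015 UMIs (E14.5 control 1) per section, with a median per spot between 12596 and 35773.5. The Otsu threshold differed between the stages, at 2.54, 2.19 and 2.27 for the E14.5 controls and at 3.79 and 3.58 for the E18.5 controls. The highest score outside muscle was 2.535, 2.185, 2.26, 3.794 and 3.583 in this order, and the lowest score of a muscle spot was 2.542, 2.188, 2.274, 3.803 and 3.585. Muscle RNA was not absent from these spots. The 9 muscle genes gave 0.947%, 0.555% and 0.653% of the UMIs outside muscle at E14.5 and 4.87% and 3.19% at E18.5, against 2.16% to 2.74% and 12.8% to 13.2% in muscle spots. Outside muscle they thus stood at 25.6% to 34.6% of their muscle level at E14.5 and at 24.2% and 37.9% at E18.5. Between 48.5% and 64.2% of the spots outside muscle touched a muscle spot. Of 26 further skeletal muscle genes, all 26 of them over 1.5 times higher in muscle spots in every section of a stage, 22 rose outside muscle and their summed level went from 6494 to 11254 CPM (UMIs of a gene per 1e6 UMIs) at E14.5 to 47179 and 30309 CPM at E18.5. The part of muscle RNA in the other results was not tested beyond the settings given beside them. Spots at least 200 µm from muscle still held muscle RNA. There the 9 genes gave 0.586%, 0.313% and 0.386% of UMIs at E14.5 and 4.57% and 2.18% at E18.5. In spots with a muscle score up to the section's median they gave 0.637%, 0.333% and 0.436%, and 3.42% and 1.89%. Of the 26 further genes, 21 and 22 still rose in these settings. The 200 µm setting kept 46, 44 and 20 spots at E14.5 and 91 and 103 at E18.5. A call lost there can reflect fewer spots.

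**Figure D1:**
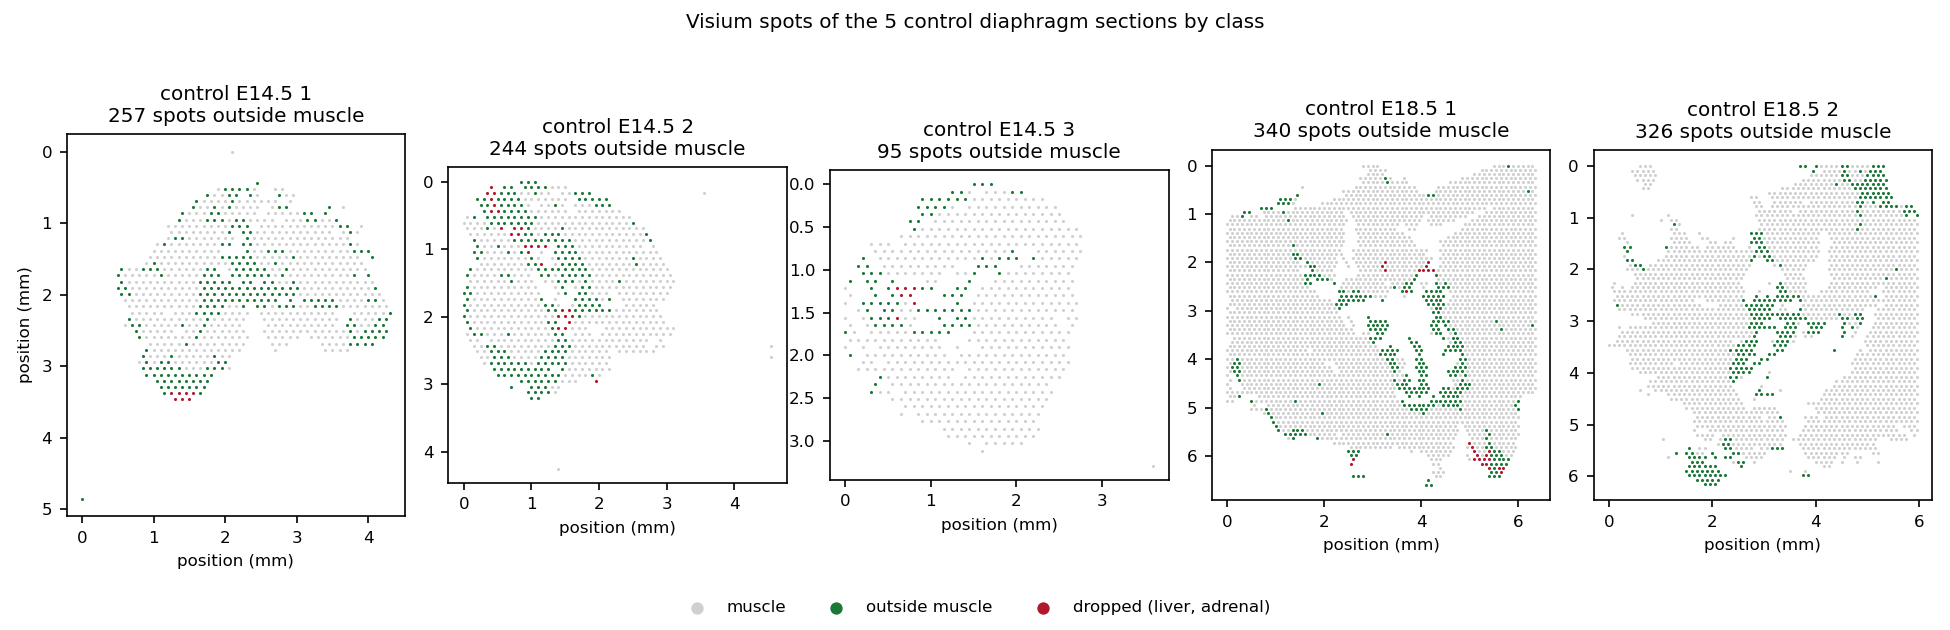
Spots under tissue in the 5 control sections, drawn at their array positions in mm (both axes), with muscle in gray, outside muscle in green and spots dropped for liver or adrenal genes in red. Spots outside muscle lie at the edges of the sections and in patches and bands between muscle, from 95 spots in E14.5 control 3 to 340 in E18.5 control 1.

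The other tissues in these spots differed between sections. The share of spots in which hemoglobin and red cell genes exceeded 0.5% of UMIs was 0 of 257 in E14.5 control 1, 29.9% and 24.2% in E14.5 controls 2 and 3, and 4 and 10 spots in the E18.5 controls. Spots rich in cartilage genes by the same limit numbered 0, 3 and 0 at E14.5 and 21 and 30 at E18.5, which are 6.18% and 9.20% of the spots. Spots rich in mesothelium genes numbered 17 in E18.5 control 1, 1 in E18.5 control 2 and none at E14.5. Liver genes other than those of the rule summed to 53.7, 752 and 1007 CPM at E14.5 and to 327 and 64.6 CPM at E18.5, and adrenal genes to 629, 36.5 and 37.4 CPM and to 42.7 and 115 CPM. Lung and foregut epithelium genes were low throughout, between 9.27 and 15.7 CPM. Over all genes, log2 CPM correlated between sections of one stage at r = 0.934 to 0.965 and between stages at r = 0.832 to 0.880, across genes that are not independent of each other.

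UMIs were summed per section and compared by edgeR's quasi-likelihood test with Benjamini-Hochberg adjustment over 13361 genes, with the 5 sections as replicates. Outside muscle, 2850 genes were higher at E18.5 (21.3% of those tested) and 2271 were higher at E14.5 (17.0%) at an adjusted p under 0.05. Rises were larger than falls: 1658 of the genes higher at E18.5 changed by at least 2-fold and 621 by at least 4-fold, against 676 and 111 of the genes higher at E14.5. The sections of the 2 stages did not overlap for 2848 and 2268 of these genes. This follows largely from the call itself and adds no support to it, and the share over all tested genes was not counted. Among the 6447 genes that were over 1.5 times higher outside muscle than in muscle in every section of a stage, 1463 (22.7%) were higher at E18.5 and 982 (15.2%) at E14.5. Among the 1227 genes that were likewise higher in muscle, 606 (49.4%) were higher at E18.5 and 98 (7.99%) at E14.5. Both classes were set from the counts that were tested, by the sections of either stage. A change with stage can thus place a gene in a class, so these shares are no test of the regions. The median log2 fold change over all tested genes was 0.03. Without E18.5 control 2 the genes higher at E14.5 numbered 1262, and with the 3 sections made by the same version of Space Ranger (E14.5 control 3 and both E18.5 controls) the counts were 721 and 339. In the text below, levels of single genes are CPM scaled by edgeR's TMM factors, fold changes are E18.5 over E14.5 on the log2 scale with their standard error, and list members are read against the 21.3% and 17.0% called among all genes. Summed levels of lists, here and above, are CPM without TMM scaling.

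Most tested genes of the structural matrix lists rose with stage, while a smaller part of the proteases and their inhibitors rose. Of 24 tested genes for fibrillar collagens and their assembly, 17 rose and none fell, with a median log2 fold change of 0.99. *Col1a1*, a chain of type I collagen, stood at 11126, 12506 and 16449 CPM at E14.5 and at 35655 and 37897 CPM at E18.5, a rise of 1.46 ± 0.24 (SE, adjusted p = 0.0041). Both E18.5 values lay above the highest E14.5 value, and in spots at least 200 µm from muscle the fold change was 1.01 and missed the threshold (adjusted p = 0.14). *Col3a1*, the chain of type III collagen found with it in compliant tissue, stood at 7825, 10450 and 11630 CPM and at 15313 and 13397 CPM, and its difference of 0.53 ± 0.23 missed the threshold (adjusted p = 0.11), although the stages did not overlap. *Col5a3*, a chain of type V collagen, went from 2.41 to 8.22 CPM at E14.5 to 104.8 and 193 CPM at E18.5 (4.74 ± 0.42, adjusted p = 5.0e-04). *Pcolce2*, which speeds the removal of the procollagen end peptide, went from 1.89, 3.63 and 4.82 CPM to 85.8 and 71.8 CPM (4.72 ± 0.29, adjusted p = 2.3e-04). The summed level of the list was 33533, 39799 and 49398 CPM at E14.5 and 75882 and 88717 CPM at E18.5. None of its members was biased to muscle. In spots at least 200 µm from muscle, 5 of the 24 still passed the test.

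The small leucine-rich proteoglycans that coat collagen fibrils rose in 10 of 12 genes, with a median log2 fold change of 2.02 and none lower. *Dcn* (decorin) was measured at 328, 427 and 384 CPM at E14.5 and at 1145 and 1138 CPM at E18.5 (1.59 ± 0.16, adjusted p = 6.6e-04). *Kera* (keratocan) was at 7.05 to 7.79 CPM in the E14.5 sections and at 134 and 153 CPM at E18.5 (4.27 ± 0.14, adjusted p = 8.8e-05). *Ecm2* rose by 3.64 ± 0.25 (adjusted p = 2.9e-04). *Lum* and *Epyc* did not pass the test.

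Genes of elastic fibers and microfibrils rose in 12 of 17, with a median of 1.26. *Eln*, which encodes tropoelastin, the elastic core protein, stood at 420, 524 and 423 CPM at E14.5 and at 4123 and 9274 CPM at E18.5 (3.88 ± 0.35, adjusted p = 5.2e-04). The E18.5 sections differed from each other by more than the E14.5 sections did, yet both lay above all of them. *Mfap5*, a microfibril protein, went from 7.99, 12.4 and 8.04 CPM to 139 and 146 CPM (3.84 ± 0.20, adjusted p = 1.6e-04). Among 17 matricellular and glycoprotein genes, 14 rose and 1 fell. *Tnxb* (tenascin X, a partner of collagen fibrils) rose from 5.996, 13.2 and 8.04 CPM to 330 and 326 CPM (5.12 ± 0.29, adjusted p = 1.9e-04). *Comp*, a pentameric matrix protein of tendon and cartilage, rose from 0.747 to 2.41 CPM (15, 7 and 3 UMIs) to 52.7 and 76.3 CPM (5.65 ± 0.34, adjusted p = 2.3e-04). The member that fell was *Vcan* (versican, the large proteoglycan of loose embryonic matrix), from 426, 612 and 503 CPM to 246 and 275 CPM (-0.98 ± 0.18, adjusted p = 0.0063). In the spots at least 200 µm from muscle the fold change of *Vcan* was -0.66 and no longer passed.

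Basement membrane genes rose in 11 of 17, with a median of 0.99. *Col4a1*, a chain of the type IV collagen network, went from 337, 255 and 313 CPM to 1031 and 1311 CPM (1.96 ± 0.18, adjusted p = 5.6e-04), and *Col15a1* rose by 2.43 ± 0.17 (adjusted p = 2.9e-04). *Lama1*, the laminin chain of early embryonic basement membranes, was the 1 member that fell, from 0.804 to 5.15 CPM at E14.5 to 0.559 and 0.796 CPM at E18.5, a low level at which few UMIs were counted. That call was lost in the spots with the lowest muscle score and without E14.5 control 1, E14.5 control 2 or either E18.5 control. Of the matrix proteases and their inhibitors, 6 of 15 were higher at E18.5 and 2 lower. The share that fell was below the 17.0% of all genes. The serine proteases *Htra1* and *Htra3* rose by 2.03 ± 0.30 (adjusted p = 0.0026) and 1.60 ± 0.43 (adjusted p = 0.023), and 3 members of this list rose without E14.5 control 2 or E18.5 control 2. *Adamts9*, a protease that cleaves versican, fell from 513, 553 and 491 CPM to 218 and 197 CPM (-1.33 ± 0.14, adjusted p = 7.3e-04), and *Mmp11* fell by 0.72 on the log2 scale (adjusted p = 0.021). The calls of *Htra3* (without E14.5 control 2, E18.5 control 1 or E18.5 control 2) and of *Mmp11* (without E14.5 control 2 or E18.5 control 1) were lost when that section was left out, at edgeR adjusted p from 0.052 to 0.11. Other matrix genes stood among the largest rises by the rule for named genes: *Cpxm2*, a member of the carboxypeptidase family, at 4.75 ± 0.20 (adjusted p = 9.3e-05) and *Itgbl1*, which encodes a secreted protein with integrin-like EGF repeats, at 4.45 ± 0.28 (adjusted p = 2.3e-04).

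**Figure D2:**
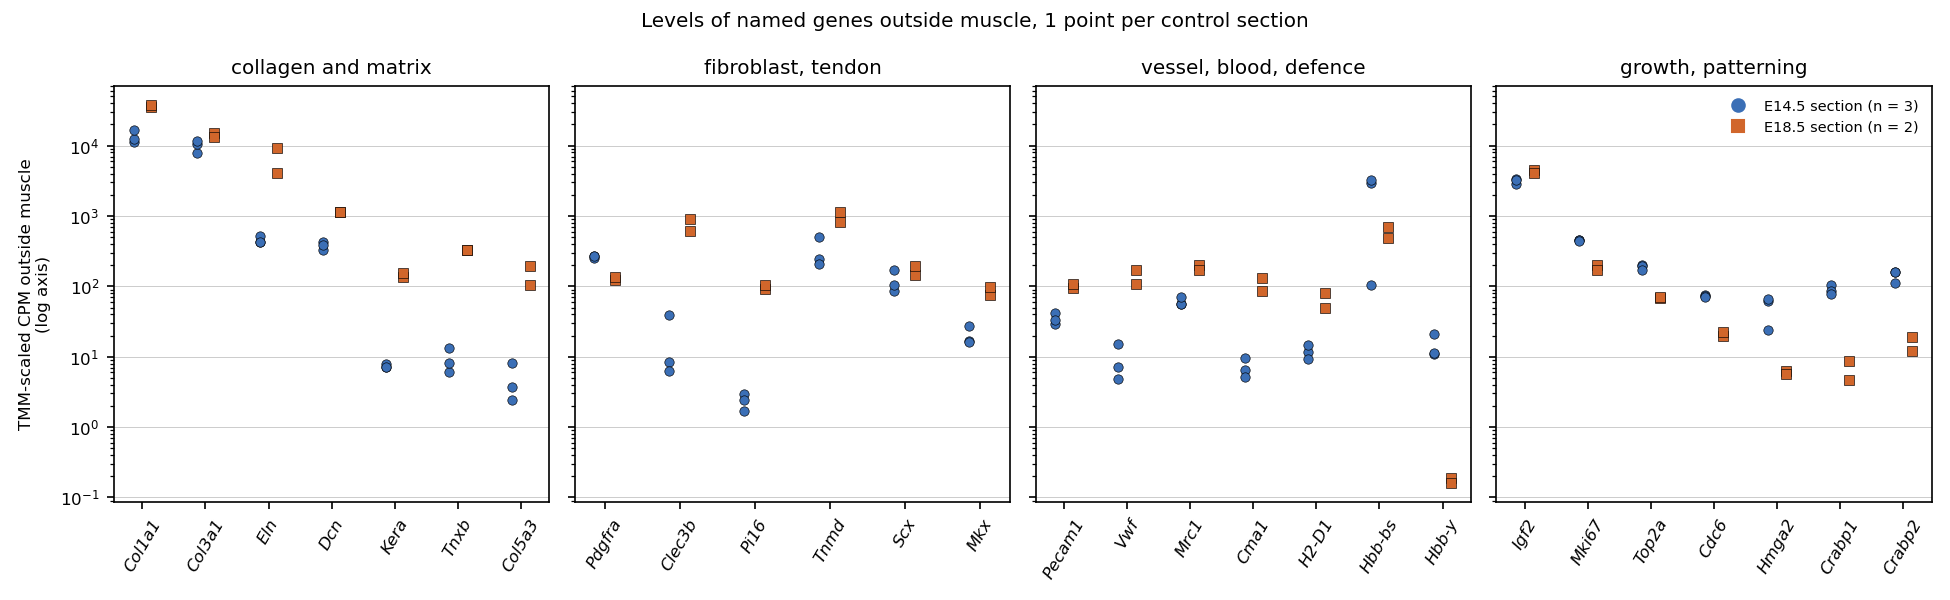
TMM-scaled CPM on a log axis of named genes in the spots outside muscle, 1 point per control section (3 at E14.5, 2 at E18.5). *Eln* and *Clec3b* lie higher in both E18.5 sections and *Crabp1* and *Hmga2* higher in all 3 E14.5 sections, with no overlap between the stages.

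Fibroblast markers mostly rose, but the members differed. Of 19 tested, 11 rose and 2 fell (median 1.27), and the summed level went from 3629, 4300 and 4005 CPM to 7312 and 9535 CPM. *Clec3b* (tetranectin, chromosome 9, 123150946 to 123157432 in GRCm38) stood at 8.42, 6.30 and 39.4 CPM at E14.5 and at 609 and 909 CPM at E18.5 (5.96 ± 0.66, adjusted p = 9.4e-04). *Pi16*, a marker of adventitial fibroblasts (chromosome 17, 29318796 to 29328903), went from 1.68, 2.99 and 2.41 CPM to 91.4 and 103 CPM (5.37 ± 0.23, adjusted p = 9.5e-05). The growth factor receptor gene *Pdgfra*, a general marker of fibroblasts and their progenitors, went the other way, from 267, 253 and 271 CPM to 123 and 136 CPM (-1.02 ± 0.12, adjusted p = 0.0011). *Osr2*, a transcription factor gene of embryonic connective tissue, also fell, from 23.04, 21.02 and 14.47 CPM to 9.50 and 11.6 CPM (-0.93 ± 0.24, adjusted p = 0.021). Among the spots with the lowest muscle score (those up to the section's median), 10 markers rose and both *Pdgfra* and *Osr2* still fell. *Osr2* did not pass without E14.5 control 1, E14.5 control 2 or either E18.5 control (edgeR adjusted p from 0.051 to 0.096).

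Tendon factors rose in 3 of 10 tested, with a median of 0.43. *Tnmd* (tenomodulin, a membrane protein of maturing tendon cells) was measured at 247, 205 and 504 CPM at E14.5 and at 1130 and 819 CPM at E18.5 (1.64 ± 0.37, adjusted p = 0.013). *Mkx* (Mohawk, a transcription factor of tendon) went from 16.6, 16.4 and 27.3 CPM to 74.8 and 96.3 CPM (2.2 ± 0.23, adjusted p = 7.5e-04). The early tendon factor *Scx* overlapped between the stages, at 84.5, 104 and 168 CPM and at 144 and 193 CPM, and did not pass (0.56 ± 0.28, adjusted p = 0.15). *Tnmd* is a call that depends on where the spots lie: with spots at least 200 µm from muscle its fold change was 0.84 and not called. Without E18.5 control 1, *Tnmd* missed the threshold (1.39, adjusted p = 0.064) and 1 tendon factor rose, and without E14.5 control 3 *Scx* passed (0.78, adjusted p = 0.033).

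Cartilage markers rose in 11 of 14 (median 4.0). *Col2a1*, the fibrillar collagen of cartilage, went from 20.9, 49.2 and 89.3 CPM to 1054 and 1107 CPM (4.48 ± 0.50, adjusted p = 9.7e-04), and *Acan* (aggrecan) from 4.21, 5.98 and 6.43 CPM to 139 and 157 CPM (4.81 ± 0.19, adjusted p = 8.8e-05). *Chad*, a leucine-rich protein of cartilage, went from 0 to 1.68 CPM at E14.5 (16, 11 and 0 UMIs) to 40.4 and 102 CPM (5.74 ± 0.53, adjusted p = 5.8e-04). The cartilage-rich spots given above were counted from these same markers, so their number adds no support to the rises. A run without cartilage spots used a narrower set of 8 cartilage genes with the same 0.5% limit. It kept 321 of 340 and 309 of 326 spots of the E18.5 controls, so some of the cartilage-rich spots counted above stayed in. In that run 7 of the 14 rose and the median was 2.69. Of 5 tested bone markers none rose and 2 fell, *Runx2* and *Phex*, the latter by 1.74 on the log2 scale (adjusted p = 0.0026), and 1 of them fell without E14.5 control 2 or either E18.5 control.

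Mesothelium markers rested on 1 section. Of 13, 6 rose in the comparison of all 5 sections, but 0 rose without E18.5 control 1 and 7 rose without E18.5 control 2. Without E18.5 control 1 the edgeR adjusted p was 0.072 for *Msln* and 0.11 for *Upk3b*. *Msln* (mesothelin) was measured at 11.4, 32.9 and 4.02 CPM at E14.5 and at 285 and 74.7 CPM at E18.5 (3.24 ± 0.70, adjusted p = 0.011). *Upk3b*, another surface protein of mesothelial cells, was at 6.10, 6.51 and 0.804 CPM and at 57.5 and 14.8 CPM (2.71 ± 0.62, adjusted p = 0.013). Both genes were higher in E18.5 control 1 than in E18.5 control 2. The number of mesothelium-rich spots was too, but it was counted from the same markers and adds no support. None of the 13 passed among the spots with the lowest muscle score.

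Vessel genes rose almost as a whole list. Of 16 endothelial markers 15 rose, with a median of 1.49, and *Emcn* was the 1 that did not pass. The summed level was 767, 629 and 649 CPM at E14.5 and 1281 and 1719 CPM at E18.5. *Pecam1*, the adhesion molecule of endothelial junctions, went from 41.7, 28.8 and 33.8 CPM to 94.0 and 107 CPM (1.53 ± 0.18, adjusted p = 0.0011). *Vwf* (von Willebrand factor) went from 15.0, 7.15 and 4.82 CPM to 108 and 172 CPM (3.78 ± 0.38, adjusted p = 6.8e-04), and the tight junction gene *Cldn5* from 21.6, 16.1 and 26.5 CPM to 104 and 159 CPM (2.70 ± 0.25, adjusted p = 5.4e-04). Lymphatic markers rose in 5 of 6, among them *Mmrn1* by 3.54 ± 0.25 (adjusted p = 3.2e-04) and the VEGF-C receptor gene *Flt4* by 1.62 ± 0.29 (adjusted p = 0.0054). Smooth muscle and pericyte genes rose in 10 of 13. *Myh11*, the smooth muscle myosin, was at 0 to 2.13 CPM at E14.5 (12, 20 and 0 UMIs) and at 36.7 and 57.2 CPM at E18.5 (4.91 ± 0.41, adjusted p = 4.5e-04). The pericyte gene *Rgs5* rose by 2.37 ± 0.27 (adjusted p = 0.0011). In this list 4 members were biased to muscle spots. Among the 16 endothelial markers, 12 to 16 were higher at E18.5 when any 1 section was left out.

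The embryonic globins *Hba-x* and *Hbb-y* were lower at E18.5, whereas the adult globins did not pass. *Hba-x* (chromosome 11, 32276600 to 32278116) had 116 UMIs in the E14.5 sections and 0 in the E18.5 sections, at least 27.6-fold lower when 3 counts over the E18.5 group are taken as the floor. *Hbb-y* had 314 UMIs at E14.5 and 2 at E18.5, a ratio of CPM of 112 with an exact 95% interval of 30.8 to 930 that covers counting error only. The embryonic globin *Hbb-bh1* was low, with 2, 14 and 2 UMIs at E14.5 and 0 in both E18.5 sections, and missed the threshold (adjusted p = 0.076). The adult globins *Hbb-bs* and *Hba-a2* did not pass (adjusted p = 0.24 for both): *Hbb-bs* was at 106, 2928 and 3200 CPM at E14.5 and at 485 and 699 CPM at E18.5. E14.5 control 1 stood far below the other two E14.5 sections in them, and without it 12 of the 13 red cell genes were lower at E18.5, against 3 with it. *Sptb*, a red cell spectrin that was higher in muscle spots, rose by 2.18 ± 0.27 (adjusted p = 0.0014).

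Genes of tissue immune cells rose. Macrophage markers rose in 11 of 15 (median 0.61), and in 7 without any 1 of the E14.5 controls or without E18.5 control 2. *F13a1*, a transglutaminase of tissue macrophages, was measured at 39.0, 40.9 and 41.0 CPM at E14.5 and at 213 and 212 CPM at E18.5 (2.40 ± 0.10, adjusted p = 9.5e-05), and the mannose receptor gene *Mrc1* at 56.2, 56.8 and 70.8 CPM and at 204 and 168 CPM (1.63 ± 0.15, adjusted p = 5.2e-04). The spread between sections was small for both genes. Mast cell genes rose in 6 of 8 (median 3.67). *Tpsb2*, a mast cell tryptase (chromosome 17, 25366308 to 25368096), was the largest rise by the rule for named genes (7.04 ± 0.32, adjusted p = 1.3e-04). It was at 0 to 0.842 CPM at E14.5 (8, 5 and 0 UMIs) and at 72.8 and 99.98 CPM at E18.5. The size of its rise thus rests on few E14.5 counts. The chymase gene *Cma1* went from 6.52, 5.23 and 9.65 CPM to 84.9 and 132 CPM (4.09 ± 0.27, adjusted p = 2.8e-04). Of 7 neutrophil granule genes only *Lcn2* passed, and without E18.5 control 2 none did.

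Genes of innate defence and antigen presentation also rose. Complement genes rose in 9 of 13 and none fell (median 1.25). The central component *C3* was at 0.842, 18.1 and 21.7 CPM at E14.5 and at 281 and 118 CPM at E18.5 (4.16 ± 0.88, adjusted p = 0.010, and 0.057 without E18.5 control 1), and the C1 inhibitor gene *Serping1* at 31.7, 38.1 and 24.9 CPM and at 190 and 167 CPM (2.44 ± 0.16, adjusted p = 2.9e-04). MHC class I and antigen processing genes rose in 10 of 13 (median 1.62). *H2-D1*, a classical class I heavy chain, went from 11.7, 9.18 and 14.47 CPM to 49.7 and 79.6 CPM (2.54 ± 0.26, adjusted p = 7.2e-04), and the peptide transporter gene *Tap2* rose by 2.70 ± 0.34 (adjusted p = 0.0014). *H2-D1* shares much of its sequence with other class I genes, so how well its probes tell them apart is uncertain.

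Schwann cell genes rose in 6 of 11 and 1 fell. *Mbp*, the basic protein of compact myelin, went from 9.99, 14.9 and 9.65 CPM to 42.6 and 59.2 CPM (2.09 ± 0.24, adjusted p = 0.0010), and *S100b* rose by 1.28 ± 0.26 (adjusted p = 0.0080). The neuregulin receptor gene *Erbb3* fell from 92.4, 49.0 and 61.9 CPM to 29.0 and 27.5 CPM (-1.27 ± 0.27, adjusted p = 0.011), and it was higher in muscle spots than outside them. Without E18.5 control 2 the Schwann cell genes that rose numbered 3, and *S100b* and *Erbb3* missed the threshold (edgeR adjusted p = 0.063 and 0.064).

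Genes of cell division fell. The proteins of the replication list load, unwind and copy DNA in S phase, and those of the mitosis list build the spindle and separate the chromosomes. None of the 31 replication genes rose and 29 fell (median -1.22), and none of the 29 mitosis genes rose and 25 fell (median -1.09), read against the 17.0% of all genes that were higher at E14.5. *Mki67* (Ki-67, present in cycling cells) stood at 455, 459 and 442 CPM at E14.5 and at 203 and 171 CPM at E18.5 (-1.27 ± 0.14, adjusted p = 8.0e-04), and *Top2a*, the DNA topoisomerase of mitotic chromosomes, at 199, 196 and 171 CPM and at 68.3 and 69.6 CPM (-1.46 ± 0.12, adjusted p = 4.3e-04). The largest falls with enough counts were those of *Ccne1* (cyclin E1), from 217, 162 and 162 CPM to 50.8 and 32.5 CPM (-2.13 ± 0.24, adjusted p = 9.2e-04), *Cdc6*, a loader of the replicative helicase (-1.80 ± 0.14, adjusted p = 3.7e-04), and the spindle checkpoint kinase gene *Bub1*, from 74.9, 69.1 and 61.9 CPM to 21.97 and 18.8 CPM (-1.77 ± 0.15, adjusted p = 4.9e-04). *Ccne1* was the 1 tested replication gene biased to muscle spots, where it stood at 335, 283 and 265 CPM at E14.5 and fell by 2.77 on the log2 scale. The part of muscle RNA in its fall outside muscle was not tested. The summed replication genes were at 3090 to 3393 CPM at E14.5 and at 1161 and 1246 CPM at E18.5. In the spots with the lowest muscle score 23 replication and 22 mitosis genes still fell, and in spots at least 200 µm from muscle 16 and 11. *Gins1*, *Slbp*, *Anln*, *Foxm1*, *Prc1* and *Ube2c* did not pass.

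The promoters of these genes were read because division genes are known to carry shared elements near their start sites. RefSeq windows (GRCm38.p6, 250 bases before to 50 after the start, 300 bases in all) were searched on both strands for the letters TTTGAA (the core of the cell cycle homology region, CHR), CCAAT and TTTNNCGC (an E2F-type site). The windows of *Top2a* (chr11:99024140-99024439, minus strand), *Bub1* (chr2:127831810-127832109, minus strand) and *Cdc6* (chr11:98907901-98908200, plus strand) are shown to compare 2 mitosis genes with 1 replication gene, with matches in capitals:
Top2a: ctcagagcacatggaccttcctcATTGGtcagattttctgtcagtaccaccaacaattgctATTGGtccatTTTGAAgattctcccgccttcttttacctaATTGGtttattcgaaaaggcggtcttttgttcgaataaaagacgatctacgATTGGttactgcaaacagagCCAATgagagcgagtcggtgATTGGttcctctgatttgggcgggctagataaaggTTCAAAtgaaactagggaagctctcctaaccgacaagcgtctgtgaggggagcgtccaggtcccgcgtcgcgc
Bub1: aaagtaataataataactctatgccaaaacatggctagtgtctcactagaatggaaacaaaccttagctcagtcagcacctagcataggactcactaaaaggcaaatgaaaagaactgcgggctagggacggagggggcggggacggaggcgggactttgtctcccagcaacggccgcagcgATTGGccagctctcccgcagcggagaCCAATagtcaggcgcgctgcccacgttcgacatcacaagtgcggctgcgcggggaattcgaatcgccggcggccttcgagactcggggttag
Cdc6: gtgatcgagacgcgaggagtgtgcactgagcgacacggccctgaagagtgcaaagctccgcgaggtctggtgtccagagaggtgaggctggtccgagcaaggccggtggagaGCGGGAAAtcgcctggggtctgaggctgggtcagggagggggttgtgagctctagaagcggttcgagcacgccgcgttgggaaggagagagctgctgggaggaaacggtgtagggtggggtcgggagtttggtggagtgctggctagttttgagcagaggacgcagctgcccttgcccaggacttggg
The *Top2a* window held 6 CCAAT and 2 CHR matches, that of *Bub1* 2 CCAAT matches and that of *Cdc6* 1 E2F-type match, and the window of *Ccne1* held none of these letters. For each gene the first listed window was read. That of *Cdc6* lies inside the annotated gene (98907709 to 98923942), past its outermost start. Among mitosis genes higher at E14.5, 15 of 20 windows (75.0%) held CHR, 17 (85.0%) CCAAT and 2 (10.0%) the E2F-type letters. Among replication genes higher at E14.5, 3 of 24 windows (12.5%) held CHR, 13 (54.2%) CCAAT and 11 (45.8%) the E2F-type letters. Over the 10454 tested genes with a window the shares were 11.4%, 38.1% and 8.31%, over the 1807 genes higher at E14.5 they were 15.2%, 43.4% and 13%, and over the 2203 genes higher at E18.5 they were 10.8%, 35.0% and 5.81%. A match of letters is a description of the window and not a measured binding site.

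Of 15 retinoic acid genes 4 were higher at E18.5, near the share of all genes, 6 were lower and 5 were not called. Their median was -0.27, and 0.03 in spots at least 200 µm from muscle. The retinoic acid binding proteins gave the 2 largest falls by the rule for named genes: *Crabp1* (chromosome 9, 54764748 to 54773110) went from 104.9, 84.5 and 78.8 CPM to 4.65 and 8.76 CPM (-3.73 ± 0.28, adjusted p = 3.6e-04) and *Crabp2* from 110, 158 and 158 CPM to 11.9 and 18.8 CPM (-3.19 ± 0.26, adjusted p = 4.3e-04). Enzyme genes went both ways: *Aldh1a1*, which makes retinoic acid, rose by 2.67 ± 0.37 (adjusted p = 0.0021) and *Cyp26b1*, which degrades it, by 1.97 ± 0.50 (adjusted p = 0.020), whereas *Rdh10*, which makes its precursor, was among the genes that fell and *Aldh1a2*, *Aldh1a3* and *Cyp26a1* did not pass. *Cyp26b1* missed the threshold without E14.5 control 3 or either E18.5 control (edgeR adjusted p from 0.058 to 0.081), and without E18.5 control 2 only 2 genes of this list rose. Of 18 fetal growth and imprinted genes 2 rose, 6 fell and 10 were not called. *Hmga2*, a chromatin protein of fetal growth, went from 62.7, 65.4 and 24.1 CPM to 6.33 and 5.73 CPM (-3.15 ± 0.42, adjusted p = 0.0018), and *Igf2bp1*, an RNA-binding protein of fetal tissues, from 125, 122 and 105.3 CPM to 33.9 and 31.5 CPM (-1.86 ± 0.13, adjusted p = 3.2e-04). The imprinted genes *Rtl1* and *Zim1* rose by 1.89 ± 0.32 (adjusted p = 0.0042) and 0.70 ± 0.13 (adjusted p = 0.0054), *Rtl1* being higher in muscle spots. *Igf2*, the fetal growth factor, did not pass at 2845, 3366 and 3206 CPM against 4533 and 4055 CPM (0.45 ± 0.17, adjusted p = 0.076), although both E18.5 values lay above all 3 at E14.5.

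Other large falls were of *Asb4* (255, 258 and 278 CPM against 42.6 and 30.6 CPM, -2.85 ± 0.17, adjusted p = 2.3e-04), a subunit of ubiquitin ligases, and of *Col26a1* (202, 138 and 166 CPM against 33.7 and 25.9 CPM, -2.51 ± 0.21, adjusted p = 4.6e-04). *Rimklb* fell by 2.67, the transcription factor gene *Bcl11a* by 2.29, the replication clamp partner *Pclaf* by 2.23 and the guidance receptor gene *Epha7* by 2.12 on the log2 scale (edgeR adjusted p from 3.2e-04 to 0.0010).

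Secreted signals and their modulators are given by family. IGF-binding proteins accounted for 3 of the 4 rises among 9 tested genes of the IGF list. *Igfbp6* went from 14.9, 27.1 and 16.1 CPM to 259 and 238 CPM (3.62 ± 0.25, adjusted p = 2.9e-04) and *Igfbp7* from 126, 62.7 and 104 CPM to 677 and 953 CPM (3.07 ± 0.30, adjusted p = 6.6e-04), while *Igfbp2*, *Igfbp4* and *Igfbp5* did not pass. Of 17 Wnt ligands and secreted antagonists 8 rose and none fell (median 1.04). The Dickkopf family gene *Dkk3* went from 29.3, 40.8 and 59.5 CPM to 193 and 330 CPM (2.70 ± 0.31, adjusted p = 0.0011). TGF-beta and BMP genes rose in 6 of 20, not far above the 21.3% of all genes, and fell in 1 (median 0.19). The ligand gene *Bmp6* rose by 2.24 ± 0.27 (adjusted p = 0.0012), the co-receptor gene *Tgfbr3* by 1.48 ± 0.15 (adjusted p = 7.9e-04), and *Tgfb2* fell from 354, 357 and 292 CPM to 163 and 149 CPM (-1.11 ± 0.14, adjusted p = 0.0016). Genes that respond to glucocorticoid rose in 11 of 15 and none fell (median 1.12). *Klf9* went from 3.26, 4.27 and 1.61 CPM to 39.5 and 40.4 CPM (3.50 ± 0.25, adjusted p = 3.2e-04), and the sulfotransferase gene *Sult1a1* rose by 2.90 ± 0.24 (adjusted p = 4.3e-04). In muscle spots the median of this list was 1.81. In the model of both regions given below, 7 of its 15 members changed less outside muscle than in muscle, against 15.7% of all genes in that model.

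Respiratory chain genes rose in 20 of 26 (median 0.83), but 25 of the 26 were biased to muscle spots, the median in muscle was 2.0, and the count was 9 in the spots with the lowest muscle score and 3 at 200 µm or more from muscle. It was 12 without E14.5 control 2 or E18.5 control 1 and 13 without E14.5 control 3, and with 1 common muscle threshold for all sections none rose, 5 fell and the median was -0.12. That threshold, 2.87, lay above the own threshold of each E14.5 section and below both at E18.5. It put 425, 553 and 361 spots outside muscle at E14.5 and 43 and 142 at E18.5. Spots that are muscle by their own section's threshold thus counted as outside at E14.5. *Ndufb10*, a subunit of complex I, was at 450, 401 and 374 CPM at E14.5 and at 1117 and 711 CPM at E18.5 (1.16 ± 0.21, adjusted p = 0.0054), and *Ndufb9* rose by 1.13 ± 0.20 (adjusted p = 0.0052). Adipocyte and lipid uptake genes rose in 10 of 13 and 1 fell, with 8 still higher at 200 µm or more from muscle, and 5 of the 13 were biased to muscle. *Fabp4*, a fatty acid binding protein of fat cells and capillaries, went from 64.8, 56.6 and 45.8 CPM to 283 and 288 CPM (2.32 ± 0.15, adjusted p = 2.4e-04), and *Gpihbp1*, which carries lipoprotein lipase to the capillary wall, from 17.6, 19.6 and 22.5 CPM to 72.4 and 97.0 CPM (2.13 ± 0.18, adjusted p = 4.3e-04). The lipid droplet gene *Plin2* fell by 0.50 on the log2 scale (adjusted p = 0.027), a call lost without E14.5 control 1, E14.5 control 2 or either E18.5 control (adjusted p from 0.056 to 0.11). Of the muscle check list, *Mybpc2* and *Pvalb*, both of fast fibers, rose by 7.12 ± 0.26 and 6.63 ± 0.25 (adjusted p = 8.8e-05 for both) and were higher in muscle spots.

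**Figure D3:**
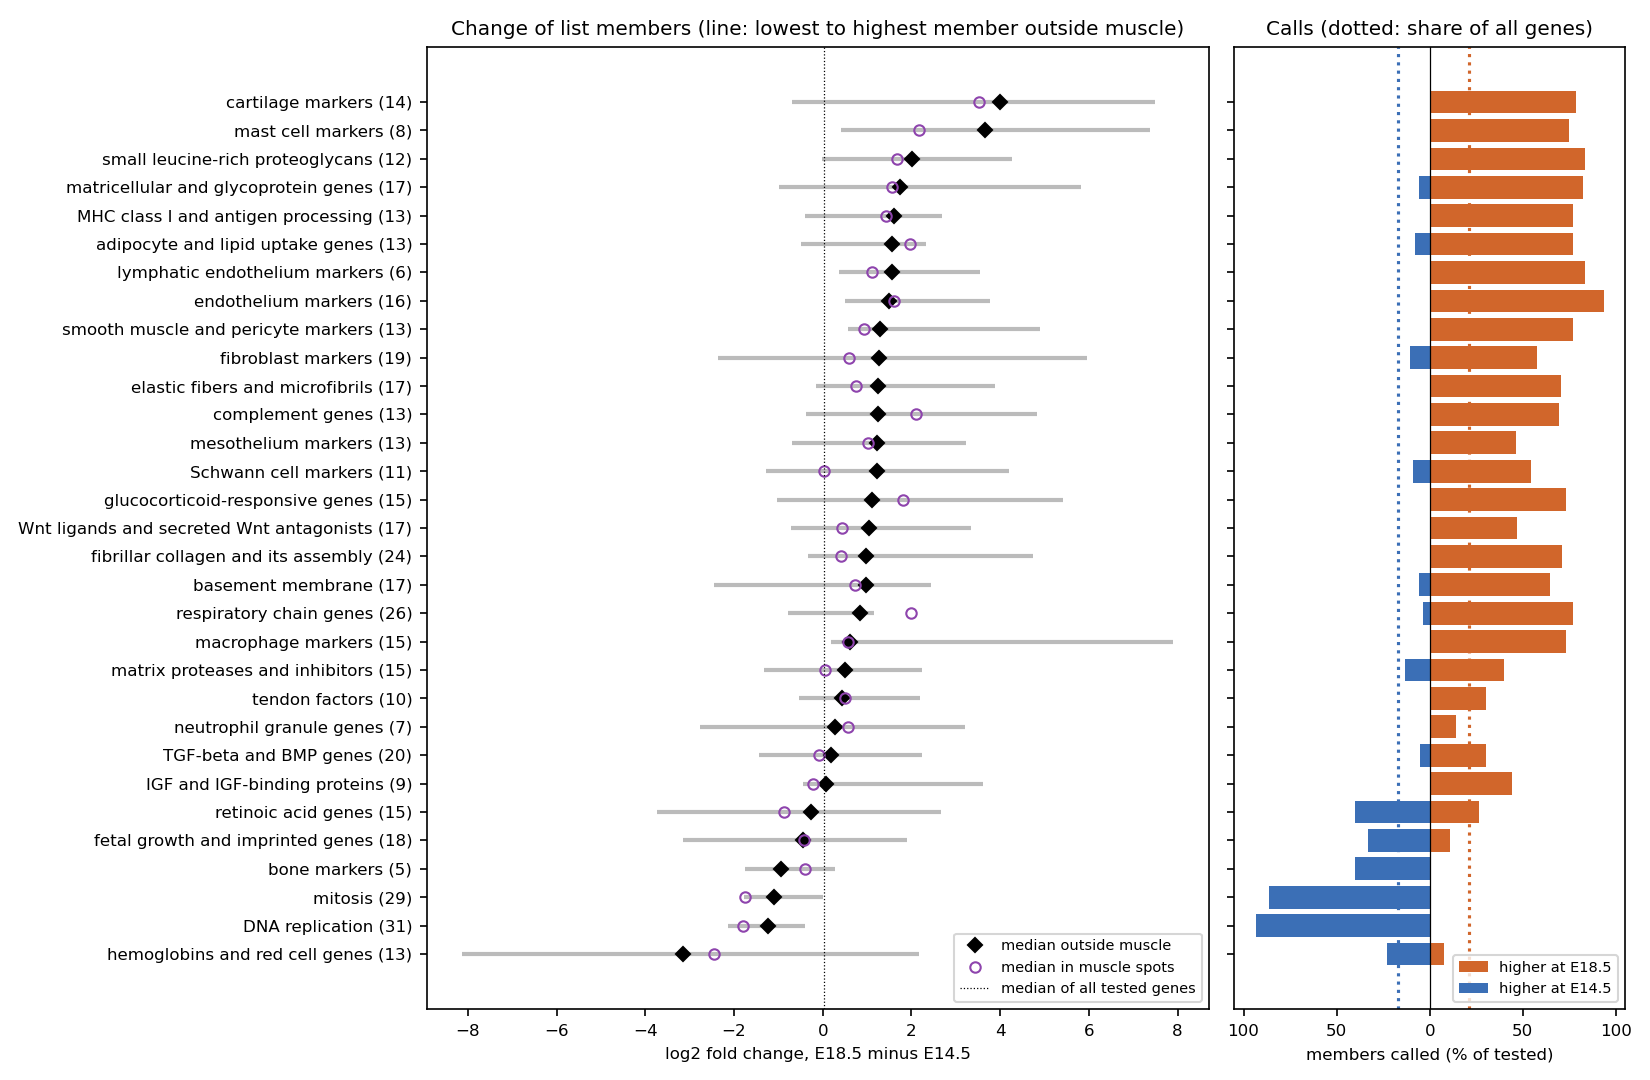
Left, the median log2 fold change of each gene list outside muscle (diamonds) and in muscle (circles), with a line from the lowest to the highest member, which for the red cell list ends at fitted values of genes with 0 UMIs at E18.5. Right, the percentage of tested members (their number in brackets) higher at E18.5 (orange) or E14.5 (blue) by edgeR at an adjusted p under 0.05, with dotted lines at the 21.3% and 17.0% of all genes. DNA replication (0 higher and 29 lower of 31) and mitosis (0 and 25 of 29) stand apart in direction from the matrix and vessel lists, for example endothelium (15 and 0 of 16).

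Whether the change with stage differed between the tissue outside muscle and the muscle of the same sections was tested in a second edgeR model of 10 sums, 1 per section and region, with section as a block. Because the regions were chosen by muscle genes and their mixing differs between sections, genes tied to muscle are given no reading here. Of 13975 genes, 1254 (8.97%) changed more toward E18.5 outside muscle than in muscle and 2198 (15.7%) less, 3452 in all. Without E14.5 control 1 or E14.5 control 2 this total was 2241 or 1984. Division genes fell less outside muscle: 20 of the 31 replication genes and 21 of the 29 mitosis genes lay above muscle and none below. Their summed levels, without TMM scaling, overlapped between the regions at E14.5, 3090 to 3393 CPM outside and 3323 to 3517 CPM in muscle for replication. At E18.5 they were 1161 and 1246 CPM outside and 640 and 524 CPM in muscle. The 9 muscle genes alone took 12.8% and 13.2% of muscle UMIs at E18.5, and their effect on these sums was not tested. For *Mki67* the difference of the stage changes was 0.48 (adjusted p = 0.022). Matrix lists differed among themselves. Of the fibrillar collagen list 10 of 24 lay above muscle and 1 below, of the elastic fiber list 6 of 17 and none, of the small leucine-rich proteoglycans 5 of 12 and 1, of the matrix proteases and inhibitors 5 of 15 and 2, of the matricellular and glycoprotein genes 4 of 17 and 1, and of the basement membrane genes 1 of 17 and none. Of the fibroblast markers 7 of 19 lay above and 1 below. *Eln* rose by 1.23 more on the log2 scale outside muscle than in it (adjusted p = 0.0015), *Dcn* by 1.1 more (adjusted p = 0.0022) and *Col1a1* by 0.92 more (adjusted p = 0.023). In muscle spots *Dcn* stood at 196 to 222 CPM at E14.5 and at 255 and 310 CPM at E18.5. None of the 16 endothelial and 15 macrophage markers passed in either direction. A p that misses the threshold does not show that the changes were alike.

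The genes with the largest differences by the rule for named genes were of mixed kinds, with CPM scaled within each region. *Olfml2b*, of the olfactomedin family, rose outside muscle from 67.5, 48.2 and 64.3 CPM to 306 and 399 CPM and was at 43.9 to 50.3 CPM and at 49.3 and 68.0 CPM in muscle. *Scara5*, a ferritin receptor found in fibroblasts, rose outside muscle from 12.5, 8.003 and 10.5 CPM to 146 and 150 CPM, against 5.53 to 9.25 CPM and 15.2 and 30.2 CPM in muscle. *Igfbp3* rose outside muscle from 329, 286 and 359 CPM to 923 and 1090 CPM, while in muscle it was at 356 to 421 CPM and at 316 and 284 CPM. *Bex2* and the imprinted gene *Nnat* were lower at E18.5 in muscle by a wider margin than outside it: *Nnat* was at 300.4, 318 and 400.5 CPM and at 78.8 and 217 CPM outside and at 130 to 174 CPM and 8.63 and 25.7 CPM in muscle. In the other direction *Slc27a1*, a fatty acid transporter, was at 32.3, 35.7 and 37.8 CPM and at 68.7 and 65.6 CPM outside and at 14.4 to 16.7 CPM and 88.8 and 91.9 CPM in muscle, and *Atp1b1*, a subunit of the sodium pump, at 100.04, 182 and 89.3 CPM and at 191 and 226 CPM outside and at 62.7 to 63.5 CPM and 288 and 352 CPM in muscle.

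**Figure D4:**
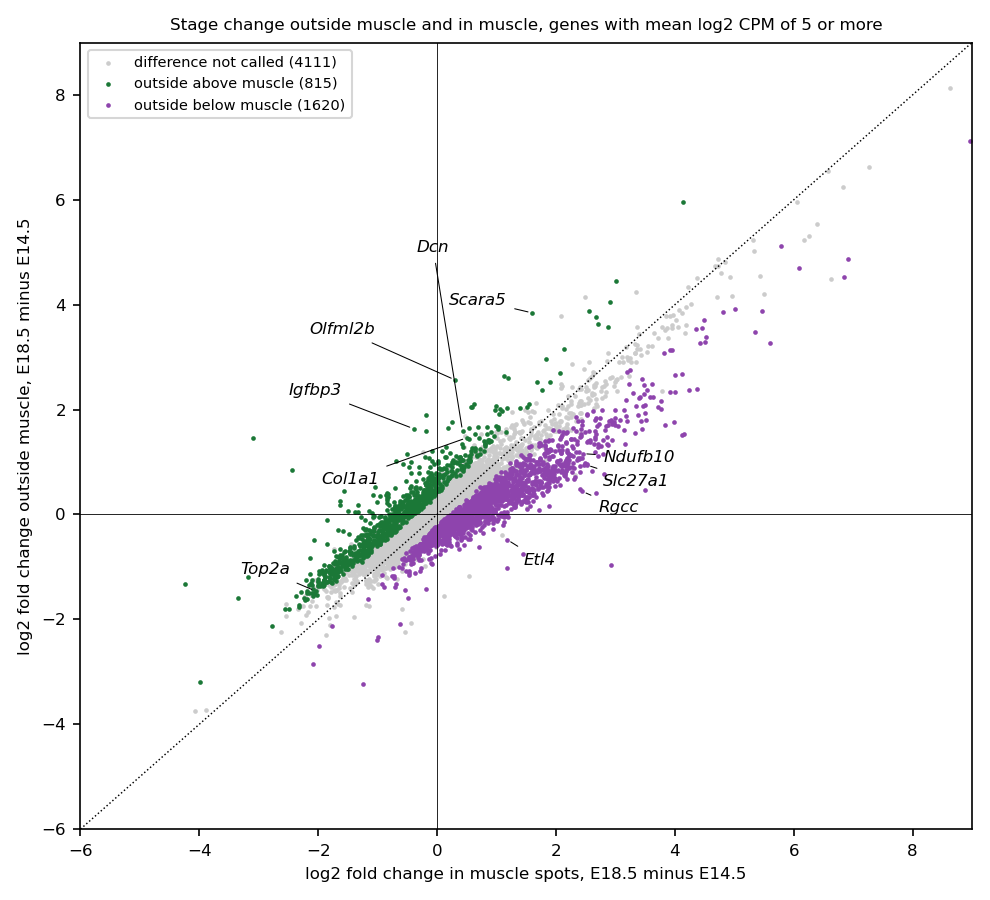
Log2 fold change E18.5 over E14.5 outside muscle (y axis) against that in muscle (x axis), each from a separate edgeR fit of that region. Drawn are the 6546 genes whose mean log2 CPM was 5 or more in the edgeR model of both regions. Genes whose changes differ in the model of both regions are colored (815 above muscle, 1620 below). The diagonal marks equal change, the distance from it is not the tested difference, and 1 gene lies beyond the axes.

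The CaV1.1 KO gave 1 section at each stage, with 363 and 448 spots outside muscle by the same rule, so its values have no replicate and no test. Of the 2850 genes higher at E18.5 in controls, 2610 (91.6%) were also higher at E18.5 in the KO pair, with a median log2 difference of 0.86 against 1.17 in the controls. Of the 2271 genes higher at E14.5 in controls, 2147 (94.5%) were lower at E18.5 in the KO pair, with medians of -0.75 and -0.78. Over all 13361 genes, 48.0% were higher at E18.5 in the KO pair. Replication and mitosis genes had medians of -1.09 and -1.22 in the KO pair. *Tpsb2* was at 0.174 CPM (2 UMIs) and 125 CPM, *Eln* at 582 and 3644 CPM, *Col1a1* at 7671 and 18231 CPM and *Crabp1* at 116 and 6.21 CPM in the KO at E14.5 and E18.5. Other genes did not follow the controls: *Dcn* was at 339 and 384 CPM, *Pcolce2* at 8.02 and 8.38 CPM and *Hba-x* at 4.1 and 4.5 CPM (47 and 29 UMIs). *Scx*, which was not called in controls, was at 71.2 and 30.7 CPM. *Col2a1* was at 42.5 and 7.76 CPM, and the median of the cartilage list was -0.91. By the limit used above, cartilage-rich spots numbered 0 of 363 and 1 of 448 in the KO at E14.5 and E18.5. The E18.5 controls had 21 of 340 and 30 of 326. Spots rich in tendon factors numbered 0 in both KO sections. They numbered 9, 1 and 0 in the E14.5 controls and 11 and 5 in the E18.5 controls. Mesothelium-rich spots numbered 0 and 7 in the KO. Each count uses the genes of that tissue, so it adds no support to their levels. Beyond these counts, whether the KO sections hold the same tissues as the controls outside muscle was not tested.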

How the data were processed

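Visium libraries of 8 diaphragm sections were read as deposited: the authors made UMI counts per gene and spot (19465 genes) with Space Ranger, mouse probe set and mm10 reference, without normalization. The file headers name version 2.0.0 for 3 sections (the E14.5 KO and the first 2 E14.5 controls) and 2.0.1 for the others. Deposited spatial scores of single genes were not used.

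Each spot's 9 muscle genes were log-normalized (log of 1 plus counts per 10000 UMIs), averaged and cut at the section's Otsu threshold (scikit-image 0.26.0). Spots with 1000 or more UMIs outside muscle, less those over 0.5% liver and adrenal UMIs, were summed per section. The sums were tested with edgeR 4.0.16 (R 4.3.3; filterByExpr, TMM, glmQLFit and glmQLFTest, no covariate; adjusted p under 0.05 over all tested genes), and the outside and muscle sums of each section with section as a block. The standard error was the log2 fold change divided by the square root of F. Sections come from separate embryos. The KO pair was given as log2 ratios of TMM-scaled CPM with a prior count of 2. In simulated counts of these sections (13361 genes, 200 changed), the stage test recovered 6.06% of genes changed 1.5-fold, 56.5% changed 2-fold and 81.5% changed 4-fold, with 16 false calls. Far more genes were called in the data (2850 and 2271), which makes the Benjamini-Hochberg cut less strict there. The simulated shares therefore do not give the recovery in the data. Intervals and floors cover counting error only.

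The members, the 35 gene lists and the rule for named genes were chosen with earlier results of these data known. Named were the 10 largest rises and 10 largest falls among called genes (mean log2 CPM 5 or more), no overlap between stages and no muscle bias over 1.5 times; up to 2 rises and 2 falls per list (mean log2 CPM 4 or more); 16 genes named whatever their values; and 5 genes in each direction for the outside against muscle model. The 13 genes of the rule were given no test, and 1 named gene is not reported here. Other genes named only as members of a list were not given statistics. All 102 named genes were found in the RefSeq annotation. DESeq2 1.42.0 and limma 3.58.1 were used as alternatives, beside other scalings, filters, spot choices and left-out sections. Images and reads were not analysed here.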

Additional observations from a re-analysis of the deposited data

Results flagged for a closer look

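For 10 genes the change with stage differed between the tissue outside muscle and muscle by the test of that difference itself, chosen as the 5 largest in each direction by the rule for named genes (edgeR with section as a block, adjusted p from 8.7e-04 to 0.0050, 3 sections at E14.5 and 2 at E18.5). The log2 change outside muscle minus that in muscle was 2.66 for *Bex2*, 2.202 for *Olfml2b*, 2.15 for *Scara5*, 1.95 for *Igfbp3* and 1.95 for *Nnat*. It was -2.02 for *Rgcc*, -1.93 for *Gm13889*, -1.76 for *Etl4*, -1.67 for *Slc27a1* and -1.65 for *Atp1b1*. *Bex2* was at 119, 103 and 79.6 CPM at E14.5 and at 15.6 and 65.8 CPM at E18.5 outside muscle, so its E18.5 sections differed, and at 83.1 to 95.8 CPM and 3.82 and 5.68 CPM in muscle. *Rgcc* was at 30.9, 69.0 and 65.1 CPM and at 76.0 and 69.9 CPM outside muscle and at 19.1 to 42.0 CPM and 127 and 188 CPM in muscle. *Etl4* was lower at E18.5 outside muscle in the controls, yet at 38.1 and 142 CPM in the KO sections at E14.5 and E18.5. *Gm13889* went from 11.7 to 16.6 CPM to 58.7 and 84.2 CPM outside muscle and from 6.21 to 7.79 CPM to 119 and 149 CPM in muscle. By the mean of the E18.5 sections, *Rgcc* and *Gm13889* were 1.81 and 1.57 times as high in muscle spots as outside. They escaped the rule for muscle bias, which asks for over 1.5 times in every section of a stage. Why the regions differ in these genes was not tested.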

How the results depend on the processing

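The count of genes higher at E18.5 (2850) and at E14.5 (2271) kept within 1.5 times under most of the 23 alternatives. It fell to 1381 and 570 when a change over 1.5-fold was tested, to 1086 and 441 with spots at least 200 µm from muscle and to 721 and 339 with the 3 sections of Space Ranger 2.0.1, each of which uses a stricter test, fewer spots or fewer sections (the 1 E14.5 section of the last is assumed to vary like those at E18.5). The mean over spots with limma gave 1864 higher at E18.5 and 2729 higher at E14.5, and 1 common muscle threshold 3060 and 3213, so the split of calls by direction moved with both. The common threshold counted as outside E14.5 spots that are muscle by their own section's threshold, and it left 43 and 142 spots at E18.5. The spots with a muscle score up to the section's median outside muscle gave 1908 and 1352. Leaving out any 1 section gave 1997 to 2395 genes higher at E18.5 and 1262 (without E18.5 control 2) to 2330 higher at E14.5. With replicate number as a replicate block the counts were 2650 and 2030. The numbers are not shown to pair embryos. Deviations of same-numbered sections from their stage mean correlated at -0.292 and -0.165. With 2 sections at E18.5 the crossed values (0.292 and 0.165) must be the same with the opposite sign, so they add nothing about pairing. Genes whose change differed between regions (3452) numbered 690 with spots at least 200 µm from muscle, 1852 with sections thinned to the smallest total and 1984 (without E14.5 control 2) or 2241 (without E14.5 control 1) to 3673 with 1 section left out. The KO medians of 0.86 and -0.75 were 0.84 and -0.74 in the spots with the lowest muscle score. Of the 102 named genes 99 kept their direction under every alternative run and 28 lost the call under at least 1. Outside muscle *Nnat* (-0.64 to -1.28) and *Etl4* (-0.44 to -0.52) lost it in most left-out sections, and *Bex2* (-2.7 without E18.5 control 2), *Atp1b1* (1.08 without E14.5 control 2), *Hbb-bs* and *Hba-a2* (-2.4 and -2.18 without E14.5 control 1) gained it. In spots at least 200 µm from muscle the call was lost for *Col1a1*, *Vcan*, *Htra1*, *Htra3*, *Mmp11*, *Tnmd*, *Osr2*, *Msln*, *Flt4*, *S100b*, *Erbb3*, *Phex*, *Plin2*, *Ndufb9*, *Aldh1a1*, *Cyp26b1*, *Zim1* and *Nnat*. The median of the TGF-beta and BMP list (0.19) lay between -0.07 and 0 in that setting, with tendon-rich spots, with the mean over spots and without E14.5 control 1. The direction turned for *Scx* (-0.0053 with spots at least 200 µm from muscle, -0.0167 with the Space Ranger 2.0.1 sections), *Hbb-bs* (0.0433 with the replicate block) and *Etl4* (0.0619 with tendon-rich spots). The cause was not tested. With 2 sections at E18.5 and the smallest section holding 1150475 UMIs outside muscle, small changes can be missed. How often was not measured at the number of calls made here. Of the called genes, 1658 of 2850 higher at E18.5 and 676 of 2271 higher at E14.5 changed by at least 2-fold.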
